A study of Mus musculus with 6 samples.

Results

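The fibroblast stromal genes were 10 genes chosen by symbol: Thy1, Fap, Postn, Dcn, Lum, Dpt, Pi16, Cd248, Fn1 and Tnc. All 10 were found among the 55401 genes of the count table, each under 1 Ensembl identifier. They were compared between 3 epithelioid hemangioendothelioma (EHE) tumours taken from the peritoneal surface and 3 livers, all from C57BL6 mice. EHE is a cancer of endothelial cells, and the series describes a genetically engineered mouse model of it. Not given in the sources used here were the alleles carried by the mice, any promoter or recombinase, their age and sex, whether each sample is a separate animal, and whether the livers came from tumour-bearing mice. Tumour state and tissue differ together and cannot be told apart, and since separate animals are not stated, the p-values reflect the spread among these 6 samples, possibly a technical one.

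Fibroblasts are the mesenchymal cells that build and remodel the extracellular matrix of connective tissue. They secrete fibrillar collagens, small proteoglycans that bind those fibrils, and glycoproteins such as fibronectin and tenascin that cells grip through integrins. In a healthy liver this matrix is sparse and comes largely from stellate cells and portal fibroblasts, while hepatocytes secrete soluble plasma fibronectin into the blood. In solid tumours fibroblasts often turn up matrix and surface genes of the kind listed here. Several of the 10 genes are also made by other cells: Thy1 by T cells and some endothelium, Cd248 by pericytes, and Fn1 by hepatocytes and endothelium.

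The libraries held 38068941 to 40277346 counts in tumours and 33881392 to 39600125 counts in livers. More genes were detected in liver 2 (33274) than in livers 1 and 3 (19767 and 19001). Vascular endothelial markers were present in the tumours, where 10 of 10 were called higher than in liver, against 29.5% of all genes tested. Their summed level was 1939 to 3741 CPM (gene counts relative to library size after TMM scaling) in tumours, against 155 to 198 CPM in livers. The 10 hepatocyte markers summed to 7.67 to 15.6 CPM in tumours and 166188 to 257193 CPM in livers. Both labels therefore matched their defining markers. In bulk tissue, a change in the number of cells of a type and a change in RNA per cell cannot be told apart.

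Of the 10 fibroblast stromal genes 8 were called higher in tumours than in livers, none was called lower, and Dcn and Fn1 did not pass. Calls were made by edgeR's quasi-likelihood test with Benjamini-Hochberg adjustment over 17387 genes, at a threshold of 0.05, and 29.5% of those genes were called higher and 28.7% lower. For 9 of the 10 every tumour lay above every liver in TMM-scaled CPM, against 35.1% of all genes tested, and Fn1 overlapped. Thy1, Tnc, Cd248, Pi16 and Fap were called higher with a fitted change of at least 8-fold, a size reached upward by 12.8% of all genes. The median log2 fold change of the 10 was 3.28, and that of all tested genes was 0.10. With library totals in place of TMM factors the median of all genes moved to 1.38 and Dcn was also called, making 9 of 10, with 61.5% of all genes called higher. Under all 19 alternative settings 7 to 9 of the 10 genes were called higher, and the share of all genes called higher moved as follows. It was 29.8% with RLE size factors and also 29.8% with TMM computed without the 100 most abundant genes. It was 14.9% with no low-count filter, 32.7% with a filter at 1 CPM in 3 libraries, 32.1% by DESeq2, 27.1% by limma-voom, 19.1% in a test against a 2-fold change and 26.0% with a replicate block. Leaving out tumour 1, 2 or 3 gave 25.0%, 28.2% and 25.2%, and leaving out liver 1, 2 or 3 gave 22.9%, 28.3% and 22.8%. By limma on FPKM it was 63.1% with either pseudocount and 32.1% without a filter, and without libraries 2 of both groups it was 32.9%.

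**Figure D1:**
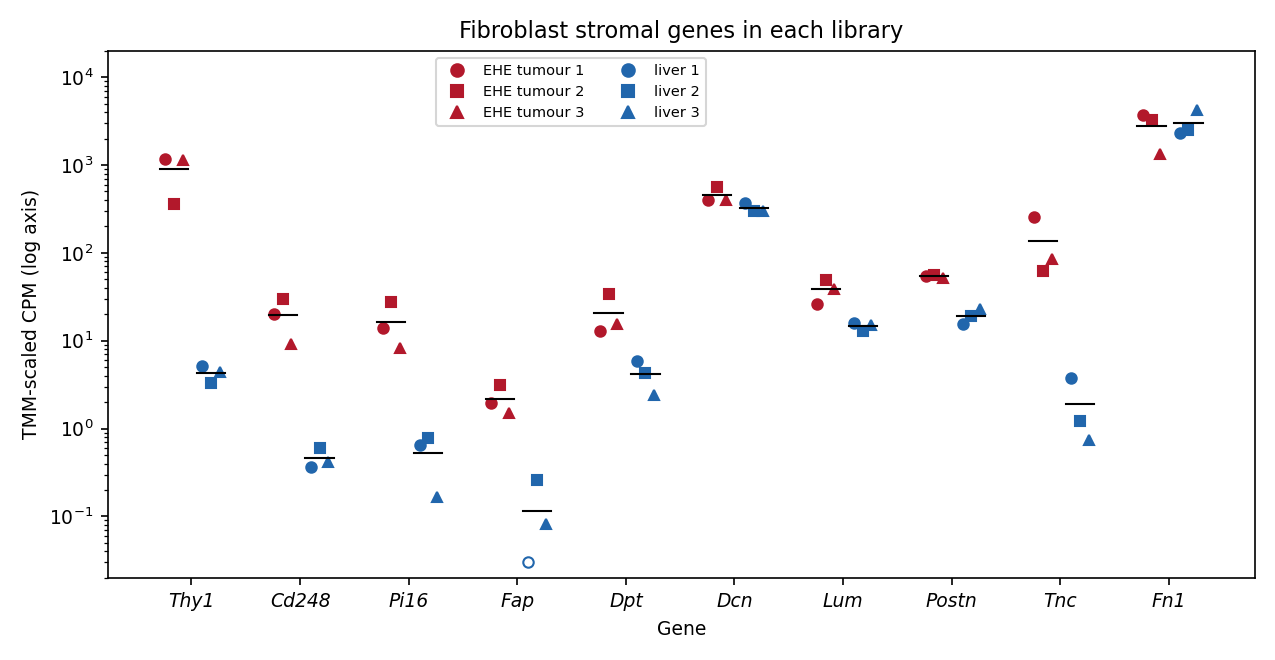
TMM-scaled CPM on a log axis for each of the 10 genes in the 3 EHE tumours (red, left) and the 3 livers (blue, right), with the marker shape giving the library number and the black bar the group mean. The open circle is Fap in liver 1, which had 0 counts and is drawn at the foot of the axis. Thy1 differs most between the groups, with means of 895 CPM in tumours and 4.3 CPM in livers, while Fn1 overlaps.

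Among the cell surface genes, Thy1 rose most. It encodes CD90, a small glycoprotein anchored to the membrane by a lipid tail and used to sort fibroblasts. Thy1 (ENSMUSG00000032011, chromosome 9, 44043384 to 44048579, GRCm38) had 1183, 358 and 1144 CPM in EHE libraries 1 to 3, against 5.15, 3.29 and 4.46 CPM in livers 1 to 3. Tumours 1 and 3 lay about level, tumour 2 was the lowest, and even that library was 69.6 times the highest liver. The log2 fold change was 7.70 (SE 0.62, edgeR adjusted p = 7.70e-05), and 98.8% of the tested genes had a lower one. Tumour 2 was the highest tumour for a list of 10 T cell genes, which summed to 66, 180.4 and 59.2 CPM in the 3 tumours and to 25.3 to 47 CPM in livers. The T cell gene Cd3e had 1.51, 5.32 and 2.07 CPM in tumours 1 to 3, so the tumour highest for T cell genes was the lowest for Thy1. The vascular endothelial list summed to 3741, 1939 and 3305 CPM, lowest in the tumour with the least Thy1. The part of either cell type in the Thy1 level was not tested.

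Cd248 and Pi16 were nearly silent in liver. Cd248 encodes endosialin, a transmembrane C-type lectin of fibroblasts and pericytes, and lies in a single exon on chromosome 19 from 5068078 to 5070682. Cd248 had 20.2, 29.5 and 9.17 CPM over the 3 tumours, against 0.365, 0.607 and 0.413 CPM in livers, where these rest on 9, 14 and 10 counts. All tumours were above all livers, and the log2 fold change was 5.40 (SE 0.54, edgeR adjusted p = 1.92e-04). Pi16, peptidase inhibitor 16, marks fibroblasts of the adventitia around vessels in mouse tissues (chromosome 17, 29317680 to 29330593). Pi16 had 13.8, 27.4 and 8.21 CPM in the 3 tumours and 0.649, 0.78 and 0.165 CPM in livers 1 to 3. The highest tumour was again tumour 2 and the lowest tumour 3, and the log2 fold change was 4.95 (SE 0.69, edgeR adjusted p = 9.20e-04).

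Fap was the least abundant of the 10 in both tissues by median FPKM. It encodes fibroblast activation protein, a membrane serine protease that cleaves after proline and is scarce in resting tissue (chromosome 2, 62500943 to 62574075). Fap had 119, 183 and 93 counts in tumours 1 to 3, against 0, 6 and 2 counts in livers 1 to 3. Fap had 1.95, 3.13 and 1.49 CPM in the tumour libraries, against 0, 0.26 and 0.0825 CPM for liver, so the groups did not overlap. Its fitted log2 change was 4.24 (SE 0.96, edgeR adjusted p = 0.00768). That value rested on 8 liver counts in all, and was 5.67 without liver 2. A count of 0 allows up to 3 counts if counts are independent, so the fold against liver 1 alone is not given.

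The small matrix proteins had smaller fitted changes than the surface genes. Decorin and lumican, from Dcn and Lum, are small leucine-rich proteoglycans that coat collagen fibrils and limit their thickness, and their genes are neighbours on chromosome 10 with a gap of 47.0 kb. Dcn (97479609 to 97518143) had 399, 559 and 401 CPM across tumours 1 to 3, against 369.9, 298 and 303 CPM in livers. The lowest tumour was only 1.08 times the highest liver. The log2 fold change of 0.49 (SE 0.24) did not pass (edgeR adjusted p = 0.128), and by library totals alone it was 1.77 (edgeR adjusted p = 6.54e-04). Relative to the median of all genes it was 0.39 under both scalings. Lum (97565128 to 97572703) had 26.5, 49.4 and 39.3 CPM in the 3 tumours and 15.8, 13 and 15.1 CPM in livers. Every tumour exceeded every liver. The fitted log2 change was 1.39 (SE 0.25, edgeR adjusted p = 0.00291), a call not made in a test against a 2-fold change (edgeR adjusted p = 0.0656, alternatives from 2.96e-08 to 0.0656).

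Dermatopontin, encoded by Dpt, is a small protein that binds decorin and helps collagen fibrils assemble. Dpt (chromosome 1, 164796644 to 164824266) had 12.9, 33.6 and 15.5 CPM in EHE libraries 1 to 3, against 5.84, 4.29 and 2.39 CPM in livers 1 to 3. Tumour 2 stood above the other tumours, and no tumour overlapped a liver. Its log2 fold change was 2.31 (SE 0.48, edgeR adjusted p = 0.00559).

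The matricellular genes Postn and Tnc both rose, by very different amounts. Periostin (Postn) binds collagen and integrins and is made by activated fibroblasts in healing tissue. Postn (chromosome 3, 54361109 to 54391037) had 54.9, 56.5 and 51.4 CPM over the 3 tumours, against 15.7, 18.9 and 22.9 CPM in livers. It was the steadiest of the 10 among tumours, its highest tumour being 1.1 times its lowest, against a median of 1.52 times for genes of 1 or more CPM. The log2 fold change was 1.50 (SE 0.18, edgeR adjusted p = 4.48e-04). Tenascin-C (Tnc) is a large glycoprotein of embryonic, wounded and tumour matrix. Tnc (chromosome 4, 63959785 to 64047015) had 258, 62.2 and 84.9 CPM in the 3 tumours and 3.81, 1.21 and 0.743 CPM in livers 1 to 3. Tumour 1 was 4.15 times tumour 2, the widest ratio among tumours for any of the 10. Its fitted log2 change was 6.13 (SE 0.87, edgeR adjusted p = 9.88e-04), and it was 5.26 without tumour 1 and 7.13 without liver 1.

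The bases before the start sites of Postn and Tnc are shown because both matrix genes were called higher in tumours. Another reason is that their RefSeq start sites lie within 2 bases of the starts in the GENCODE annotation. Each sequence is the 250 bases upstream of the start from RefSeq on GRCm38.p6, with capitals marking a TATAAA match, chr3:54360857-54361106 on the plus strand for Postn and chr4:64047016-64047265 on the minus strand for Tnc.
Postn: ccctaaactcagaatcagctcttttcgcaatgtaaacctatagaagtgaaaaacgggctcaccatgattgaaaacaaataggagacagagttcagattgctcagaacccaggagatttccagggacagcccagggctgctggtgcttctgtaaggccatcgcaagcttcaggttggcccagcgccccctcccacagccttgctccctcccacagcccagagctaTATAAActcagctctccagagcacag
Tnc: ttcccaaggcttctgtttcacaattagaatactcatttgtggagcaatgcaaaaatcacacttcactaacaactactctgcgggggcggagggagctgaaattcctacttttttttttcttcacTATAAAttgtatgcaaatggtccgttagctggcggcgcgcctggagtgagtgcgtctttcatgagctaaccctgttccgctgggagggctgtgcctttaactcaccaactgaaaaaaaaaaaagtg
Both windows hold TATAAA, which 12.4% of 32851 RefSeq windows of this length hold on either strand. In Postn the match lies at -26 to -21 from the start site, and in Tnc at -126 to -121. The letters GGAATG (TEAD motif, held by 12.6% of windows), TGANTCA (AP-1 motif, 6.7%) and CCAAT (33.8%), each sought on both strands with overlapping matches allowed, are not in either window. RefSeq entries were matched for 4 of the 10 genes, the others being Dpt and Pi16, whose windows overlap annotated exons and are not printed.

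Fibronectin (Fn1), the large dimeric glycoprotein that cells assemble into fibrils, was abundant in both tissues, and its difference between them did not exceed the spread. Fn1 (chromosome 1, 71585520 to 71653200) had 3737, 3289 and 1341 CPM across tumours 1 to 3, against 2339, 2517 and 4275 CPM in livers 1 to 3. The highest single value was liver 3 and the lowest was tumour 3, so the groups overlapped. The log2 fold change was -0.13 (SE 0.49, edgeR adjusted p = 0.843), and it was 1.15 by library totals alone (edgeR adjusted p = 0.0581) and 0.89 by limma on log2(FPKM + 1) (adjusted p = 0.0851). Relative to the median of all genes the value by library totals was -0.23, the same as under TMM. The summed CPM of the 10 genes was 5707, 4468 and 3096 CPM in tumours and 2757, 2856 and 4624 CPM in livers, and overlapped. Without Thy1 and Fn1 the other 8 genes summed to 787, 821 and 611 CPM in tumours, against 412, 336 and 345 CPM in livers.

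**Figure D2:**
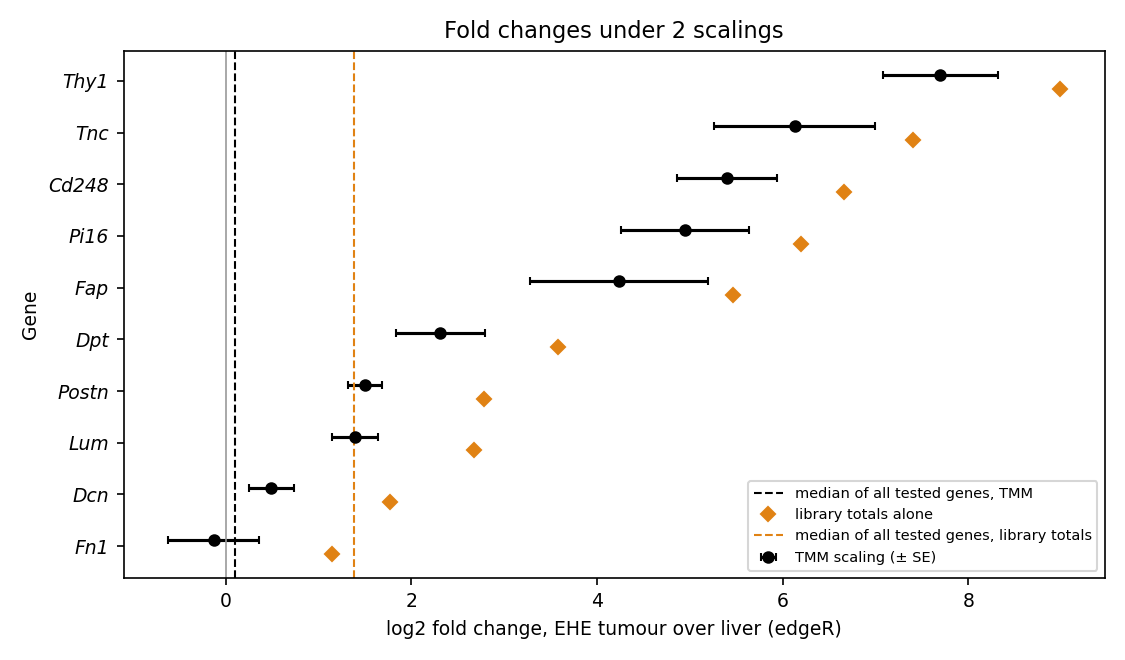
edgeR log2 fold changes of EHE tumour over liver for the 10 genes, under TMM scaling (black, with 1 SE) and under library totals alone (orange), with the median of all tested genes dashed in the same colour (0.10 and 1.38). Dcn and Fn1 lie nearest the medians under both scalings, and Thy1 lies farthest above.

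The order of the genes' levels was taken from FPKM, the authors' value per unit of transcript length. By median FPKM over tumours the order was Thy1 (1595), Fn1 (623), Dcn (339), Postn (23.9), Lum (23.3), Tnc (16.8), Dpt (13.5), Cd248 (10.7), Pi16 (7.24) and Fap (1.03). Neighbours overlapped in their ranges over the 3 tumours, except that Dcn lay clear of Postn and Pi16 clear of Fap. In livers the order was Fn1 (230.5), Dcn (104), Lum (3.70), Postn (3.34), Thy1 (1.54), Dpt (1.45), Pi16 (0.135), Cd248 (0.0952), Tnc (0.0624) and Fap (0.0424). Neighbours overlapped there only for Lum with Postn, Thy1 with Dpt, and Cd248 with Tnc. Thy1 thus headed the tumour order by median and stood below Fn1, Dcn, Lum and Postn in livers. In tumour 2 Thy1 (460) lay below Fn1 (623). FPKM divides by transcript length, and the length implied for Thy1, described below, averaged 1027 bases in tumours and 1830 bases in livers. Its place in both orders therefore also depends on that length. The FPKM of Pi16 in liver 3, 0.205, was the highest of the livers although it came from 4 counts, the fewest.

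**Figure D3:**
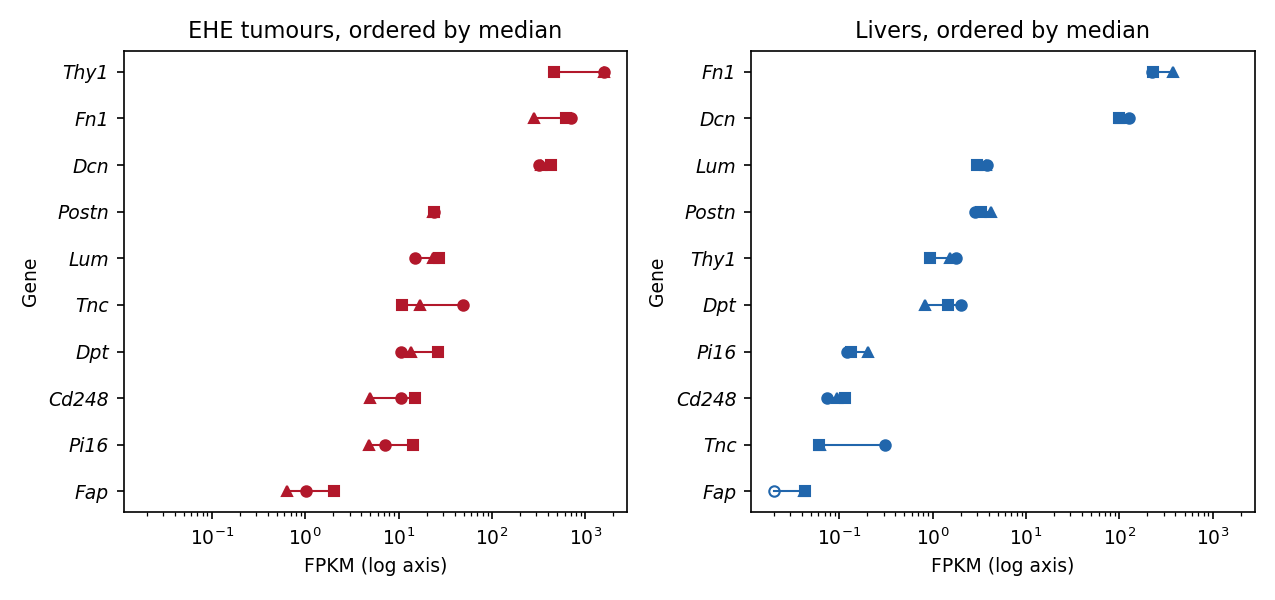
FPKM on a log axis for the 10 genes, ordered by median within EHE tumours (left panel) and within livers (right panel), with 1 marker per library (circle 1, square 2, triangle 3) and a line over the range. Open markers are drawn at the foot of the axis for a value of 0 (Fap in liver 1). Thy1, Fn1 and Dcn lie well above the rest in tumours, and Fn1 and Dcn in livers.

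The counts and FPKM of a gene together give an implied transcript length, and for Thy1 that length lay apart in the tissues. This measure was added after seeing the data and was calibrated in each library on 382 to 602 genes that have 1 annotated transcript. Lum, with a single annotated transcript of 2448 bases, returned 2441, 2411 and 2422 bases in tumours 1 to 3 and 2465, 2464 and 2446 bases in livers. Thy1 returned 1023, 1035 and 1023 bases in tumours 1 to 3, against 1722, 2036 and 1732 bases in livers. The longest annotated Thy1 transcript has 1735 bases, and the other 5 have 446 to 1192. The Thy1 ratio of tumour to liver length was 0.561, lower than in all but 0.23% of 9684 genes measured in this way, whose median was 0.987. Fn1 returned 7281, 7015 and 6837 bases in tumours and 6256, 6267 and 6800 bases in livers, a ratio of 1.094 with tumours above livers. All tumours lay below all livers for 27.8% of the genes and above them for 7.77%, and the exact two-sided permutation test gave p = 0.1 for each of the 6 genes with enough counts, the smallest that 3 against 3 allows. The liver values of Thy1 rest on 127, 76 and 108 counts.

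**Figure D4:**
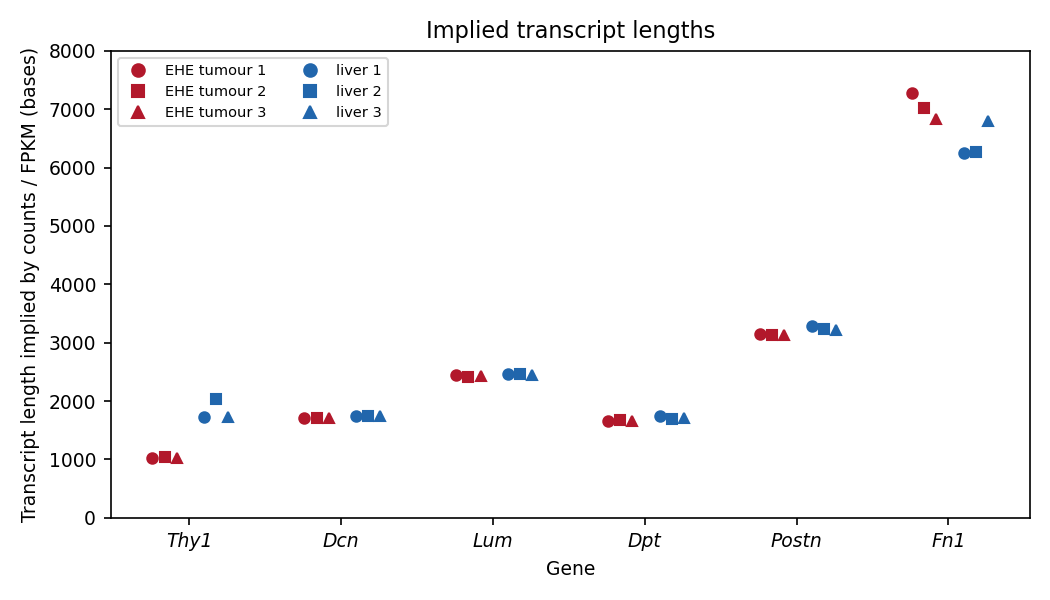
Transcript length in bases implied by the ratio of counts to FPKM for the 6 genes with 50 or more counts in every library, in EHE tumours (red, left) and livers (blue, right). Thy1 is the gene whose groups lie far apart, with means of 1027 bases in tumours and 1830 bases in livers.

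The tumours differed among themselves in a way that divided the 10 genes. Cd248, Pi16, Fap, Dpt, Dcn, Lum and Postn were highest in tumour 2, and Thy1, Tnc and Fn1 in tumour 1. None was highest in tumour 3. Of 19 genes of a second fibroblast list with 1 or more mean CPM in tumours, 14 were highest in tumour 2 (73.7%), against 38.1% of 13963 genes at that level. Tumour 2 also held the highest summed levels of skeletal muscle (1690.3, 12532 and 2945 CPM in tumours 1 to 3), adipocyte (228, 581 and 83.2 CPM), pericyte and smooth muscle (295, 1050.4 and 351 CPM) and leukocyte genes (886, 3159.6 and 719.7 CPM). The intermediate filament gene Des, which skeletal muscle also makes, carried most of the pericyte and smooth muscle sum, with 145, 891 and 266 CPM in the tumours and 9.65, 6.5 and 8.92 CPM in livers. Without Des the other 10 genes of that list summed to 149, 159.8 and 84.6 CPM in tumours and 80.6, 131 and 127 CPM in livers, and the groups overlapped. In livers the full sums were 1.9 to 7.93 CPM for muscle, 49.2 to 69.4 CPM for adipocyte, 90.2 to 137 CPM for pericyte and smooth muscle, and 193 to 668 CPM for leukocyte genes. Without Lyz2 the other 9 leukocyte genes summed to 386, 1092 and 254 CPM in tumours and 297, 121 and 255 CPM in livers, and the groups overlapped. Against 29.5% of all genes tested, called higher in tumours were 10 of 10 muscle, 7 of 10 adipocyte, 6 of 11 pericyte and smooth muscle, 6 of 10 leukocyte, 6 of 9 tested mesothelial and 5 of 10 T cell genes. The only marker of these lists at 0 in a whole group was the myosin gene Myh1, in livers. Mesothelial genes summed to 301, 353 and 309 CPM in tumours and 236 to 308 CPM in livers, where the keratin gene Krt8, which hepatocytes also make, held 231 to 269 CPM. Without Krt8 that sum was 298, 343 and 304 CPM in tumours and 38.2, 17.8 and 4.96 CPM in livers, with no overlap. Another gene of the list, Gpm6a, held 213, 85.9 and 225 CPM of the sums in tumours 1 to 3. Without Gpm6a, and with Krt8 kept, the list summed to 88.8, 267 and 84.2 CPM in tumours and 302, 255 and 235 CPM in livers. What share of the 10 genes' rise came with these cell types was not tested. Without libraries 2 of both groups, 8 of the 10 were still called higher.

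**Figure D5:**
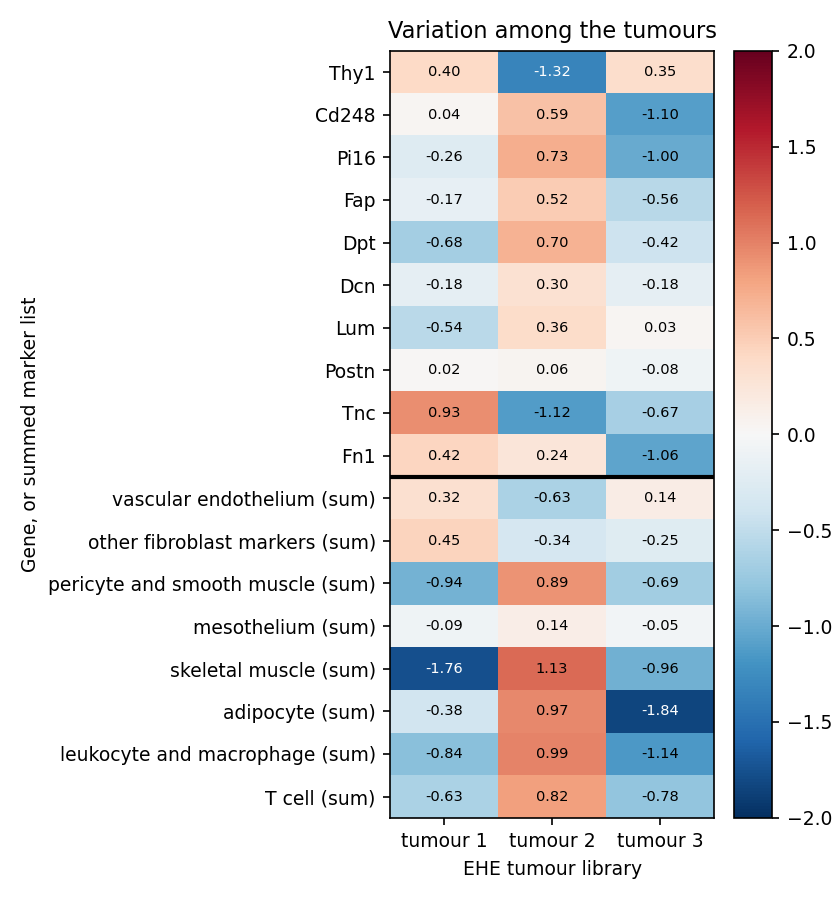
Level of each of the 10 genes (above the line) and of summed marker lists (below it) in each tumour library, as log2 of CPM over the mean CPM of the 3 tumours. Tumour 2 is highest for 7 of the 10 genes and for the muscle, adipocyte, pericyte (led by Des), mesothelial, leukocyte and T cell sums, and lowest for Thy1 (-1.32), Tnc (-1.12), vascular endothelium (-0.63) and the sum of the other fibroblast markers (-0.34), which Vim leads.

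A second list of 22 fibroblast markers moved in the same direction for most members. Of 21 tested, 17 rose, 2 fell and 2 did not pass, with a median log2 fold change of 3.64, while 29.5% of all genes were called higher and 28.7% lower. Its sum was 6027, 3499 and 3726 CPM in tumours, against 295, 279 and 238 CPM in livers, and without vimentin (Vim), an intermediate filament gene that endothelium also expresses, 2417, 2284 and 1252 CPM against 246, 248 and 206 CPM. Vim rose by 6.03 on the log2 scale (SE 0.55, edgeR adjusted p = 1.34e-04). The microfibril gene Mfap5 also rose, with 408, 631 and 289 counts in tumours against 0, 8 and 0 in livers (edgeR adjusted p = 0.00372). The genes that fell were Tcf21, a transcription factor of stellate cells and other mesenchyme, with 2 counts in each tumour and 110 to 245 in livers, and Col14a1, a collagen on fibril surfaces, at -1.68 on the log2 scale (SE 0.36, edgeR adjusted p = 0.00655). The Col14a1 call was lost by library totals alone (-0.41, edgeR adjusted p = 0.311) and in the limma fits of FPKM (adjusted p from 0.137 to 0.24). Of 10 hepatic stellate cell genes 6 fell and 2 rose, with Lrat, the retinol esterifying enzyme that defines those cells, at 0.0672 ± 0.0602 CPM in tumours and 31 ± 0.718 CPM in livers (SD, n = 3). That list summed to 324 to 1294 CPM in tumours and 507 to 654 CPM in livers. Without Des it summed to 179, 403 and 140.1 CPM in tumours and 497, 648 and 581 CPM in livers, and the groups did not overlap.

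Relatives of the 10 genes did not all follow them. Among 15 other small leucine-rich proteoglycans, of which 11 had enough counts, 4 rose, 1 fell and 6 missed the threshold, with a median of 0.89 on the log2 scale. The share of all genes called higher was 29.5%, close to that of these relatives. Asporin (Aspn) had 202, 440 and 198 counts in tumours against 0, 1 and 0 in livers (edgeR adjusted p = 3.83e-04). Ogn, encoding osteoglycin, rose by 4.23 (SE 0.59, edgeR adjusted p = 8.99e-04), while Tsku, a secreted member that the liver makes, fell by 1.86 (SE 0.31, edgeR adjusted p = 0.00215), a call lost by library totals alone (edgeR adjusted p = 0.132) and in the limma fits of FPKM (adjusted p from 0.0926 to 0.175). Kera and Epyc, which follow Lum on chromosome 10, had at most 0.342 CPM in any library and were not tested. Of 13 tested matricellular and tenascin genes 7 rose, 1 fell and 5 did not pass, with a median of 2.90. Thrombospondin 4 (Thbs4) had 5215, 1092 and 2770 counts in tumours against 0, 6 and 0 in livers (edgeR adjusted p = 4.00e-04). Comp, a cartilage thrombospondin, rose by 8.48 (SE 0.63, edgeR adjusted p = 5.59e-05, and 9.49 without liver 2), and Smoc1, a calcium-binding matrix protein, fell by 2.53 (SE 0.21, edgeR adjusted p = 7.67e-05). The tenascin gene Tnxb, unlike Tnc, did not pass at 0.60 (SE 0.54, edgeR adjusted p = 0.368), and the difference between these genes was not tested.

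Of 15 genes that fibronectin and elastic fibres are assembled with, 13 rose and none fell, with a median of 4.70 on the log2 scale, against 29.5% of all genes called higher. The crosslinking enzyme gene Lox rose by 6.54 (SE 0.50, edgeR adjusted p = 6.42e-05, and 7.17 without liver 2). The microfibril gene Mfap2 had 402, 301 and 363 counts in tumours against 0, 6 and 0 in livers (edgeR adjusted p = 0.00242). Of 10 integrin subunits that receive fibronectin, tenascin or periostin, 7 rose, 1 fell and 2 did not pass, with a median of 1.99. Itgb8 rose by 5.15 (SE 0.76, edgeR adjusted p = 0.00116, and 6.29 without liver 2), and Itga8, a subunit of stellate cells and smooth muscle, fell by 3.18 (SE 0.53, edgeR adjusted p = 0.00193). Itgb6 had 0.72, 9.98 and 0.962 CPM in tumours against 0, 0.347 and 0 CPM in livers, and its call (edgeR adjusted p = 0.0337) was lost without tumour 2 (edgeR adjusted p = 0.123), liver 1 (0.102) or liver 3 (0.0923), with alternatives up to 0.204.

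Among prolyl peptidases related to Fap, 2 rose, 3 fell and 2 did not pass of 7 tested, with a median of -0.45, near the background of 29.5% higher and 28.7% lower. Dpp4 (CD26), the closest relative of Fap, had 6.78, 14 and 6.14 CPM in tumours against 197, 226 and 206 CPM in livers, and fell by 4.54 on the log2 scale (SE 0.38, edgeR adjusted p = 8.98e-05). Its change and that of Fap were both past the threshold and of opposite sign. Dpp9 fell by 0.90 (SE 0.15, edgeR adjusted p = 0.00214), which turned to 0.38 by library totals alone and was not called in the 2-fold test (0.731). Prcp rose by 1.31 (SE 0.30, edgeR adjusted p = 0.00856, and 0.14 in the 2-fold test), and Dpp8 rose by 0.69 (SE 0.20, edgeR adjusted p = 0.0197), a call lost without tumour 3 or liver 1 (edgeR adjusted p = 0.0639 and 0.0645) and in the 2-fold test. The lectin relatives of Cd248 are endothelial genes, and Thbd (thrombomodulin) and Cd93 rose by 4.97 (SE 0.30, edgeR adjusted p = 2.59e-05) and 3.53 (SE 0.49, edgeR adjusted p = 9.12e-04), while Clec14a, at 5.32, 15.7 and 8.77 CPM in tumours and 24.5, 17.2 and 18.5 CPM in livers, lay lower in every tumour and did not pass (-1.02, SE 0.39, edgeR adjusted p = 0.0612). It was called lower in 5 of 19 alternatives. Of 9 relatives of Pi16, the 3 that were tested rose (median 1.97), with Glipr2 at 4.70 (SE 0.36, edgeR adjusted p = 6.02e-05) and Crispld2 at 1.97 (SE 0.53, edgeR adjusted p = 0.0158), and the Crispld2 call was lost without liver 2 (edgeR adjusted p = 0.0515) or liver 3 (edgeR adjusted p = 0.0558), without libraries 2 of both groups (0.0603) and in the 2-fold test (0.0624). Of 8 growth factor genes that act on fibroblasts 6 rose and none fell, and the medians of this list and the lectin list were 3.97 and 3.53. Pdgfb, a mitogen for pericytes and fibroblasts, rose by 6.36 (SE 0.59, edgeR adjusted p = 1.45e-04, and 5.65 without tumour 1), and Ccn1, a matricellular YAP/TAZ target, by 5.13 (SE 0.41, edgeR adjusted p = 7.23e-05).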

How the data were processed

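Polyadenylated RNA was extracted with a Qiagen kit and sequenced by DNBSeq at BGI, per the labels' protocols. Reads were aligned to mm10 with HISAT2 2.1.0, and FPKM values were made with Cufflinks 2.2.1.3, per the submitters' processing notes. The deposited table holds raw counts per Ensembl gene in 6 libraries. For 53 gene identifiers repeated in the FPKM table the entry with the highest mean was kept. The counting tool, annotation and strand setting were not given in the sources used here. Of the values of 1 to 10 counts, 55.0% were even in liver 2, where 17034 genes had such a value. In the other libraries 66.7% to 70.7% were even, with 4818 to 7281 such genes. The 4 genes annotated opposite Dpt, Pi16, Fn1 and Tnc had at most 23 counts in a library. Coordinates are from GENCODE M21 (GRCm38, the assembly of mm10).

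The members and gene lists (206 entries, 206 matched) were chosen with earlier results of these data known. The main test was that of edgeR 4.0.16, run in R 4.3.3 (filterByExpr, TMM, robust quasi-likelihood, no covariate, Benjamini-Hochberg over 17387 genes), and all 10 members passed the filter. Standard errors are the log2 fold change over the square root of F. All 10 members are named, and from each related list the 2 called genes with 1 or more mean CPM and the largest change in each direction. Kera, Epyc, Tnxb, Cd3e, Lrat, Clec14a, Des, Krt8, Gpm6a, Ptprc, Lyz2 and Myh1 were named after their values were seen. Alternatives used other scalings and filters, DESeq2 1.42.0, limma 3.58.1 (voom, and log2 of FPKM with pseudocounts of 1 and 0.1), a 2-fold threshold test, blocking on replicate number and each library left out. The implied length, the fit without libraries 2 and the marker sums without Des, Krt8, Gpm6a, Ptprc or Lyz2 were chosen after seeing the data. Tests were checked on simulated data in which as many genes were raised as lowered, so that check does not cover the choice of scaling. Replicates differed beyond sampling noise (chi-square per degree of freedom 105 or more).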

Additional observations from a re-analysis of the deposited data

How the results depend on the processing

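Under 19 alternatives, 7 to 9 of the 10 genes were called higher and none lower, and leaving out any single library gave 8. Thy1, Postn, Dpt, Pi16, Cd248 and Tnc kept their calls in all of them, as did Fap in the 17 in which it was tested. Lum missed only the test against a 2-fold change. Dcn was called higher by library totals alone (1.77) and by limma on FPKM (1.72 with each pseudocount and without a filter). Fn1 was not called in any, and turned positive by library totals alone (1.15), by limma on FPKM (0.89 with each pseudocount and without a filter), and among libraries left out, where it ranged from -0.39 to 0.22. Log2(FPKM + 1) gave lower values for scarce genes, such as 1.07 for Fap without a filter.

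Library totals alone gave 10688 higher and 2172 lower genes in place of 5137 and 4982, so 83.1% of calls were higher against 50.8%. Limma on FPKM gave 8613 and 2031, and the 2-fold test 3314 and 2916. Counts of list members ranged widely for T cell (5 higher, alternatives 1 to 10), leukocyte (6, 2 to 9), adipocyte (7, 3 to 9), mesothelial (6, 4 to 8), pericyte and smooth muscle (6, 3 to 7, with 1 lower, 0 to 3), stellate (6 lower, 3 to 8), Fap relatives (2 higher, 0 to 4, with 3 lower, 1 to 4), Pi16 relatives (3, 1 to 3), proteoglycan (4, 4 to 7) and matricellular genes (7, 7 to 11), while the second fibroblast list kept 15 to 18 higher and 1 to 2 lower.

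The labels number both groups 1 to 3, and the numbers were not treated as pairs in the main test. Deviations of same-numbered libraries from their group means correlated at -0.05, -0.02 and -0.03, and those of other combinations at -0.09 to 0.12. With 3 libraries per group such values cannot exclude pairing. With a replicate block 8 of the 10 were called higher and 0 lower, and 4516 genes in all were higher and 4574 lower. Liver depth limits Fap (8 counts), Cd248 (33) and Pi16 (38), whose fold changes carry that counting error. Most low counts were even and the counting tool was not given, so these counts may not be independent and the error may be larger. The causes of these shifts were not tested.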
